A study of Homo sapiens with 8 samples.

Results

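H3K4me2 was compared over 8 receptor tyrosine kinase genes known from rhabdomyosarcoma, namely FGFR4, IGF1R, PDGFRA, PDGFRB, MET, EGFR, ERBB2 and ALK. The members are all peaks that overlap the hg19 interval of one of these genes, widened by 10 kb on each side. This rule uses coordinates alone, while the genes were picked with earlier results of these data known. Peaks of the 4 libraries that shared at least 1 bp were merged into regions, and 97 of the 58952 regions on chromosomes 1 to 22 and X belonged to the 8 loci. The libraries held 84 and 85 member peaks after siLSD1 (replicates 1 and 2), against 54 and 71 after siCtrl.

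The 2 siLSD1 libraries came from RD cells, an established human rhabdomyosarcoma line, reverse transfected with 1 Silencer Select siRNA construct against LSD1. The 2 siCtrl libraries came from RD cells transfected in the same way with a control siRNA. All cells went through the same transfection reagent, a change of medium after 8 hours and harvest 96 hours after transfection, and were then precipitated with an antibody against H3K4me2. Replicates are biological per the submitters, and the peak lists do not show how far LSD1 itself was depleted. The 4 matching input libraries of the series were not analysed here.

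H3K4me2, dimethylation of lysine 4 of histone H3, marks promoters and enhancers that are active or poised. LSD1, the product of KDM1A, is a demethylase that acts on this lysine when it carries 1 or 2 methyl groups. Receptor tyrosine kinases span the cell membrane, bind growth factors outside the cell and pass the signal on through phosphorylated tyrosines inside it, to the RAS and phosphoinositide 3-kinase pathways among others. Several of them act in muscle precursors, and FGFR4, IGF1R, PDGFRA and MET are well studied in rhabdomyosarcoma.

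The promoter sequences of PDGFRA, EGFR and FGFR4 are shown because RefSeq lists a pair of transcription starts for each, and the regions described below fall differently around them. Each window runs from 250 bases before to 50 bases after a start on GRCh38.p14, 5′ to 3′ on the plus strand, with every CG dinucleotide in capitals. CG reads the same on both strands, and its occurrences do not overlap. The windows of PDGFRA lie at chr4:54229043-54229342 (start 1) and chr4:54233710-54234009 (start 2), those of EGFR at chr7:55018767-55019066 and chr7:55109589-55109888, and those of FGFR4 at chr5:177086665-177086964 and chr5:177089300-177089599.
PDGFRA start 1: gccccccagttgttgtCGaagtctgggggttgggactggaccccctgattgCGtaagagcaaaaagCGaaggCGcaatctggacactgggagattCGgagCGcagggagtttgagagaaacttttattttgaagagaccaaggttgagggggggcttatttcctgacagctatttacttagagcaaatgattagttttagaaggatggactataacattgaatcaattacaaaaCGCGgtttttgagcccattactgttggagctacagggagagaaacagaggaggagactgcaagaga
PDGFRA start 2: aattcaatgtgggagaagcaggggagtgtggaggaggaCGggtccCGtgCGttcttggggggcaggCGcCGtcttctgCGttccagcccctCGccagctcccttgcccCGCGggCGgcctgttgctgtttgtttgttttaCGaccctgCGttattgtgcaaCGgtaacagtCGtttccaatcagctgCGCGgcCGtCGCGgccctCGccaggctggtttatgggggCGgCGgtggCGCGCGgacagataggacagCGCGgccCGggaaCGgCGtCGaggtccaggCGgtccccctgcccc
EGFR start 1: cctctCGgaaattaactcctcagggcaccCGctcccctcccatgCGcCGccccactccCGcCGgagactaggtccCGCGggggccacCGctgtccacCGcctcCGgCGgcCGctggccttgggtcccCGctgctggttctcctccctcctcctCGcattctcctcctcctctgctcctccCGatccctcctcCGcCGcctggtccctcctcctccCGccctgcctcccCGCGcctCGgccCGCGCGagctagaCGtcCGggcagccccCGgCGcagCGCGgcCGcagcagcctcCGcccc
EGFR start 2: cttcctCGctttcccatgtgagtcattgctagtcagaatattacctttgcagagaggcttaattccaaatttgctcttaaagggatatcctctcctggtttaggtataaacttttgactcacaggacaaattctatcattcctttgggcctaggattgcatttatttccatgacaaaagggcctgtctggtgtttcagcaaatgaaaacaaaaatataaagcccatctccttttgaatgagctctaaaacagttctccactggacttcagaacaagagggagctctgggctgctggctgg
FGFR4 start 1: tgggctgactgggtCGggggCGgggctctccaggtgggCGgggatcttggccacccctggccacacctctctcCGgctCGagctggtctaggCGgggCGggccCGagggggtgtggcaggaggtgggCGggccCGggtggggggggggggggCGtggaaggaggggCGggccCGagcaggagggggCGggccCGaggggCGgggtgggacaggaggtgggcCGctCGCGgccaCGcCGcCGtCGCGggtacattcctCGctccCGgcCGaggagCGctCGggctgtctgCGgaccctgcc
FGFR4 start 2: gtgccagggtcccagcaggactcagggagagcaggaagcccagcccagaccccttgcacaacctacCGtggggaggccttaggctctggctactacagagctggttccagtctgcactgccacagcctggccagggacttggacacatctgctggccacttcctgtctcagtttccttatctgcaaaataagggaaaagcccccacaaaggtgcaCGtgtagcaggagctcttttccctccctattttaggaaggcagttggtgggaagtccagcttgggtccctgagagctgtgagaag

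In PDGFRA the second start was the one rich in CG, with 32 CG against 8 at the first start. In EGFR and FGFR4 it was the first, with 33 CG against 1 in EGFR and 30 against 2 in FGFR4. For scale, 81.1% of the 35116 promoter windows in the table held fewer CG than the second PDGFRA window, 82.8% fewer than the first EGFR window and 77.6% fewer than the first FGFR4 window. Within GRCh38.p14 the second start lay 4.67 kb downstream of the first in PDGFRA, 90.8 kb downstream in EGFR and 2.64 kb downstream in FGFR4. These positions were not converted to hg19. Distances of peaks are given below from the 5′ end of the hg19 interval in the direction of transcription, and that end is known only to the nearest 1 kb.

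The lists give no read depth, so the number of reads behind a peak is unknown, and sequencing depth, the yield of the precipitation and the amount of mark can each lengthen a list. They held 50587 and 49611 peaks after siLSD1 and 33878 and 44831 after siCtrl, and covered 96.9 and 104 Mb against 70.1 and 94.1 Mb. Over all peaks the ratio of mean covered length was 1.23. Both siLSD1 lists were thus longer than both siCtrl lists. The gap between the siCtrl lists exceeded that from siCtrl replicate 2 to either siLSD1 list, and siCtrl replicate 1 had the shortest list. Its part in the results was not tested, but values with equally long lists, cut to their 33878 best-scoring peaks, stand beside those they alter. Nor do peaks tell apart a mark in more cells from more mark per cell.

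Summed over a locus, each siLSD1 library had more covered sequence than either siCtrl library at IGF1R, PDGFRB, MET, EGFR and ALK, while the groups overlapped at FGFR4, PDGFRA and ERBB2. The ratio of the siLSD1 mean to the siCtrl mean was 2.06 at PDGFRB, 1.47 at MET, 1.44 at IGF1R, 1.35 at EGFR and 1.23 at ALK. It was 0.991 at FGFR4, 0.912 at PDGFRA and 0.907 at ERBB2. The ALK ratio thus equalled that of all peaks to the digits given. When each library was scaled by the sequence all its peaks cover, both siLSD1 libraries stayed above both siCtrl libraries at PDGFRB (ratio 1.62), MET (1.18), IGF1R (1.17) and EGFR (1.10). At ERBB2 both then lay below (0.730), and at ALK the groups overlapped (1.00). The EGFR groups lay close, with 0.387 kb per Mb of covered sequence in siLSD1 replicate 2 and 0.380 in siCtrl replicate 1. Scaled in this way, the authors' lists of pooled replicates gave 0.363 at EGFR under both siRNAs. At PDGFRB, MET and IGF1R their siLSD1 value was the higher. The two-sided exact permutation p was 0.333 at the 5 loci whose groups did not overlap, which is the smallest that 2 libraries against 2 allow. No locus could therefore pass a threshold of 0.05.

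**Figure D1:**
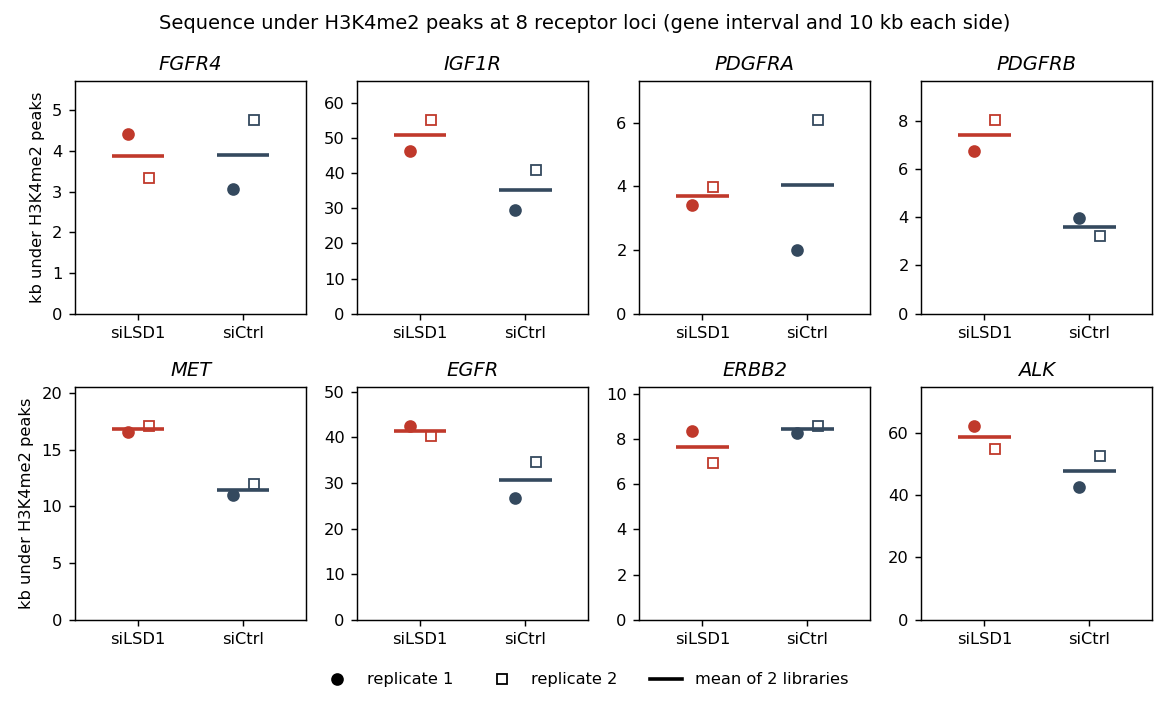
Sequence covered by H3K4me2 peaks at each of the 8 loci (kb, axes from 0), with siLSD1 to the left of siCtrl, 1 point per library and a line at the mean of 2 libraries. At IGF1R, PDGFRB, MET, EGFR and ALK both siLSD1 points lie above both siCtrl points, while at FGFR4, PDGFRA and ERBB2 the points overlap.

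A peak region lay at or close to the 5′ end of every gene, and at 7 of the 8 loci the nearest such region had a peak in all 4 libraries. The exception was PDGFRA. Of these 7 regions, each siLSD1 library was broader than either siCtrl library in 4 (PDGFRB, MET, EGFR and ALK) and narrower in 2 (FGFR4 and ERBB2). The background over all common regions, of any position and width, was 30.3% broader and 9.62% narrower. No background was computed for 5′ end regions alone. At IGF1R the groups overlapped. Below, a common region is one with a peak in all 4 libraries, and a gained region one with a peak in both siLSD1 libraries and neither siCtrl library, which 6.97% of all regions were. A score percentile is the rank of a peak's score, the authors' own value, within its list. None of these differences passed the limma test described at the end.

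IGF1R, the receptor for the insulin-like growth factors through which IGF2 acts on rhabdomyosarcoma cells, lies on chromosome 15 in band 15q26.3. Its peaks covered 46.3 and 55.2 kb after siLSD1, against 29.6 and 41.0 kb after siCtrl, so the groups did not overlap. The mean was 50.7 ± 6.31 kb after siLSD1 and 35.3 ± 8.04 kb after siCtrl (SD, n = 2 each), a difference of 15.5 kb (exact permutation p = 0.333). The difference was 9.79 kb without siCtrl replicate 1, and 8.16 kb with lists of equal length, where the groups still did not overlap.

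The broadest IGF1R region held the 5′ end (chr15:99189765-99196720). It measured 6206 and 6954 bp after siLSD1 and 5719 and 6338 bp after siCtrl, and stood above 96.6% and 97.2% of the common regions in breadth after siLSD1 and above 96.7% and 96.8% after siCtrl. The promoter window of IGF1R held 55 CG, more than 99.6% of all windows. The start of IGF1R was thus among the broadest marked regions of these cells under both siRNAs, and its groups overlapped. Inside the gene 2 regions were gained. A region 39.7 to 41.9 kb from the 5′ end (chr15:99231724-99233854) measured 928 and 2131 bp after siLSD1 and had no peak after siCtrl. Another, at 139 to 140 kb (chr15:99330636-99332396), measured 1573 and 1761 bp after siLSD1 and had none after siCtrl. Of the 26 IGF1R regions, 12 were common to all libraries. Of these 12, 7 were broader in both siLSD1 libraries (58.3%, against a background of 30.3%) and 0 narrower (background 9.62%). Another 6 of the 26 had a peak in 3 libraries, and in 5 of these 6 siCtrl replicate 1 was the one without. That library had the shortest list, and the share over all regions was not computed.

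**Figure D2:**
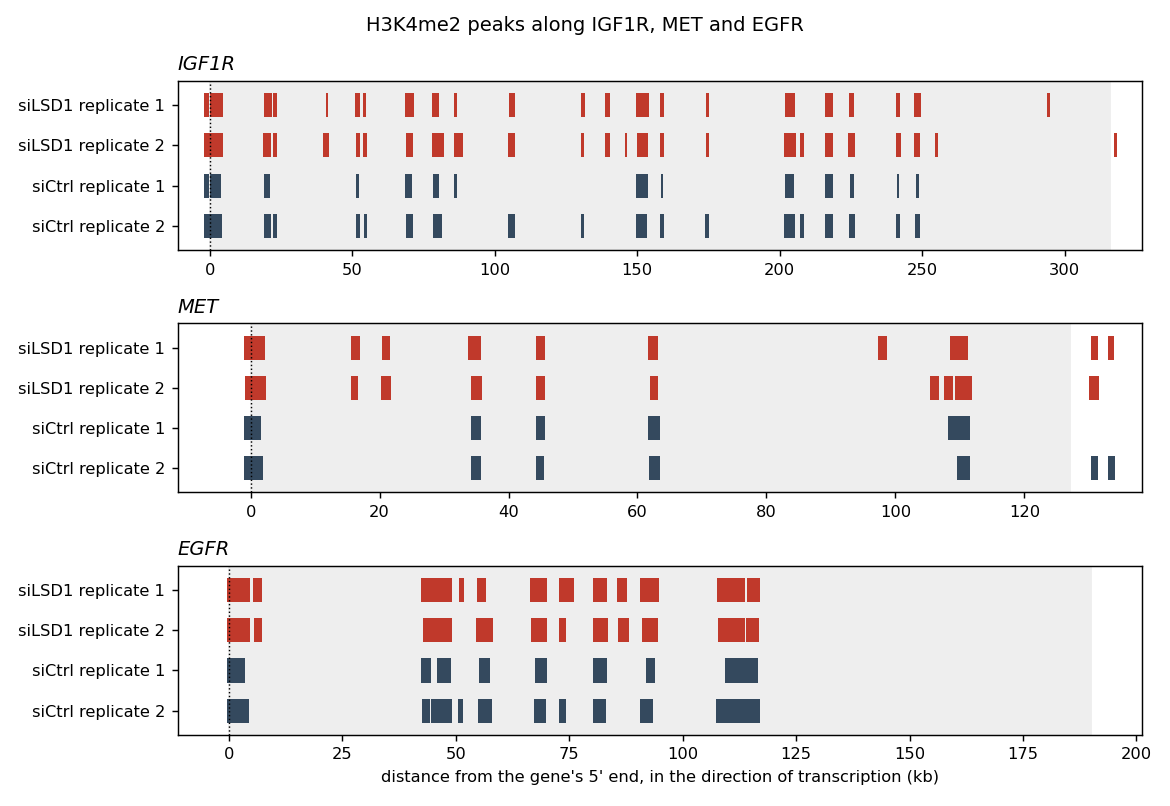
Positions of H3K4me2 peaks along IGF1R, MET and EGFR in kb from the gene's 5′ end, 1 row per library with both siLSD1 rows above both siCtrl rows; grey marks the gene interval. All 4 libraries share the peak at the 5′ end, the siLSD1 rows carry 2 further peaks within 22 kb of it in MET and 1 beside it in EGFR, and no library has a peak in EGFR beyond 117 kb.

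FGFR4, a fibroblast growth factor receptor of muscle precursors that is mutated in a share of rhabdomyosarcomas, lies in band 5q35.2. Its peaks covered 4.42 and 3.34 kb after siLSD1, against 3.06 and 4.77 kb after siCtrl, so the groups overlapped. The means were 3.88 ± 0.766 kb after siLSD1 and 3.91 ± 1.21 kb after siCtrl (SD, n = 2 each; exact permutation p = 1). The difference of -0.04 kb was 0.50 kb without siLSD1 replicate 2, -0.58 kb without siLSD1 replicate 1, 0.82 kb without siCtrl replicate 2 and -0.89 kb without siCtrl replicate 1. These near-equal sums were made up of regions that differed in opposite directions.

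The region nearest the FGFR4 5′ end ran from 0.819 to 4.53 kb downstream of it (chr5:176513819-176517533), over the distance at which RefSeq places the second, CG-poor start. Its near edge lies within the 1 kb uncertainty of the 5′ end, so it may hold the first, CG-rich start as well. Peaks in it covered 2381 and 2255 bp after siLSD1 and 3056 and 3446 bp after siCtrl. Both siLSD1 libraries were narrower, by 0.93 kb on average (limma SE 0.20 kb, adjusted p = 0.163). In breadth it stood above 49.9% and 41.7% of common regions after siLSD1 and above 75.8% and 76.0% after siCtrl. At the other end, a region 19.1 to 20.2 kb from the 5′ end (chr5:176532130-176533209), which is past the end of the gene interval, measured 878 and 1080 bp after siLSD1 and had no peak after siCtrl. The locus sums no longer overlapped with lists of equal length and were lower after siLSD1, with 2.38 and 1.03 kb after siLSD1 against 3.06 and 3.45 kb after siCtrl. That cut dropped a siLSD1 replicate 2 peak of 1229 bp with a score of 103. It kept a siCtrl replicate 1 peak of 945 bp with a score of 64.2, since that list was not shortened.

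PDGFRA, the receptor for platelet-derived growth factors A and C among others, marks mesenchymal precursors and lies in band 4q12. Its peaks covered 3.40 and 3.98 kb after siLSD1, against 2.01 and 6.09 kb after siCtrl. The siCtrl libraries lay on both sides of the siLSD1 libraries (difference of means -0.36 kb, exact permutation p = 1), and the difference was 1.68 kb without siCtrl replicate 2 and -2.40 kb without siCtrl replicate 1. PDGFRA was the most sparsely marked of the 8 loci per length in every library but siCtrl replicate 2, where PDGFRB was at 1.64. It had 1.18 and 1.29 times the share of sequence covered in the whole genome after siLSD1 and 0.965 and 2.18 times after siCtrl.

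Its main region lay 1.15 to 6.04 kb downstream of the 5′ end (chr4:55096150-55101040). It measured 3398 and 3981 bp after siLSD1 and 2007 and 4875 bp after siCtrl, and its score lay at the 97.6 and 91.6 percentiles of the peaks of the siLSD1 lists and at 93.2 and 95.8 of the siCtrl lists. In all 4 libraries the peak in it covered the distance of the second, CG-rich PDGFRA start, 4.67 kb in, and it began downstream of the first. Only siCtrl replicate 2 had a peak just upstream, of 1210 bp (chr4:55093526-55094735), and it ended within the 1 kb uncertainty of the first start.

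PDGFRB, the receptor for platelet-derived growth factors B and D, is typical of pericytes and fibroblasts and lies on the minus strand in band 5q32. It had the largest ratio of the 8 loci, with 6.74 and 8.04 kb covered after siLSD1 against 3.96 and 3.21 kb after siCtrl. The means were 7.39 ± 0.919 kb after siLSD1 and 3.58 ± 0.528 kb after siCtrl (SD, n = 2 each), a difference of 3.81 kb (exact permutation p = 0.333). With lists of equal length the difference was 1.76 kb and the groups did not overlap, and with the upper 50% of each list by score it was 0.95 kb.

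In all 3 PDGFRB regions each siLSD1 library had more covered sequence than either siCtrl library. Only 1 of them was common, while 1 was gained and 1 lacked a peak in siCtrl replicate 2. The backgrounds are 30.3% broader among common regions and 6.97% gained among all regions, and none was computed for the other kind. The 5′ end region (chr5:149532545-149536583) measured 3263 and 4039 bp after siLSD1 and 2184 and 3211 bp after siCtrl. At 11.2 to 13.7 kb (chr5:149522276-149524818), 2348 and 2344 bp were covered after siLSD1, against 1773 bp and no peak after siCtrl. At 16.8 to 18.5 kb (chr5:149517538-149519215), 1133 and 1661 bp were covered after siLSD1 and nothing after siCtrl. That last region was not absent from siCtrl altogether, since the authors' pooled siCtrl list had a peak there at the 6.7 percentile of its scores, against 32.5 in the pooled siLSD1 list. No library had a peak beyond 18.5 kb in this locus.

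**Figure D3:**
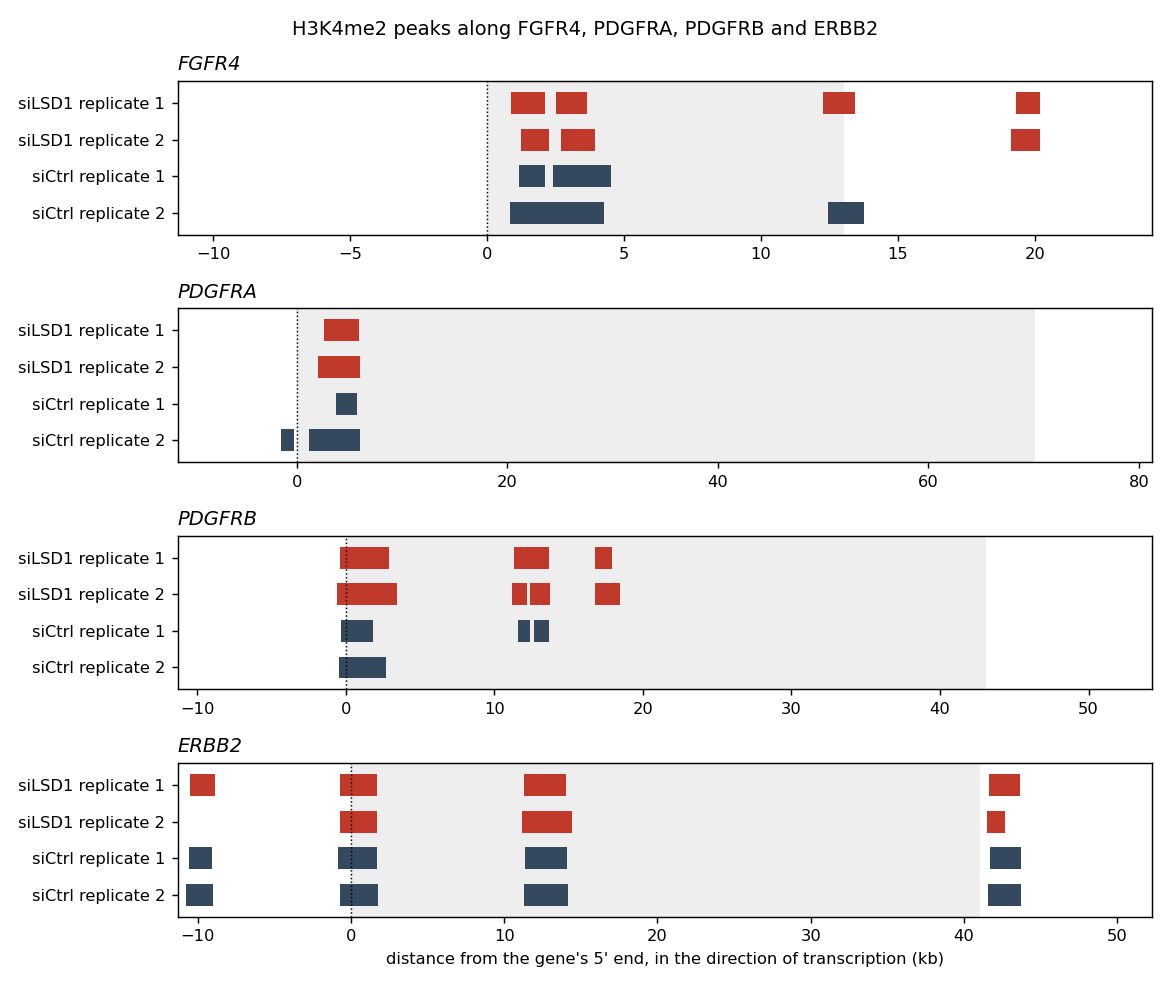
Positions of H3K4me2 peaks along FGFR4, PDGFRA, PDGFRB and ERBB2 in kb from the gene's 5′ end, 1 row per library with both siLSD1 rows above both siCtrl rows; grey marks the gene interval. The main PDGFRA peak lies between 1.15 and 6.04 kb in all 4 libraries, and at 16.8 to 18.5 kb in PDGFRB peaks are seen in the siLSD1 rows alone.

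MET, the receptor for hepatocyte growth factor that guides migrating muscle precursors, lies in band 7q31.2. Its peaks covered 16.6 and 17.1 kb after siLSD1, against 11.0 and 12.0 kb after siCtrl. The means were 16.8 ± 0.375 kb after siLSD1 and 11.5 ± 0.665 kb after siCtrl (SD, n = 2 each), a difference of 5.34 kb (exact permutation p = 0.333). With lists of equal length the groups overlapped and the difference turned to -0.44 kb, and with the upper 50% of each list it was 2.31 kb, so the higher sum at MET was seen with the whole lists and not with those of equal length.

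The MET 5′ end region (chr7:116310925-116314436) measured 3128 and 3339 bp after siLSD1 and 2629 and 2952 bp after siCtrl. Downstream of it 2 regions had a peak in both siLSD1 libraries and in neither siCtrl library. The first, at 15.5 to 16.9 kb (chr7:116327504-116328890), measured 1340 and 1162 bp, and the second, at 20.3 to 21.7 kb (chr7:116332284-116333739), 1133 and 1456 bp. Their scores were low to middling, at the 42.9 and 28.7 percentiles of the siLSD1 lists for the first and at 7.5 and 28.6 for the second. The pooled siCtrl list had a peak in the first, at its 12.1 percentile. The broadest MET region lay 108 to 112 kb in (chr7:116419564-116423896), with 2829 and 3887 bp after siLSD1 and 3505 and 2115 bp after siCtrl, and there the groups overlapped. Of the 5 common MET regions, 1 was broader (20%, against a background of 30.3%) and 1 narrower (20%, against 9.62%) in both siLSD1 libraries.

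EGFR, the receptor for epidermal growth factor, lies in band 7p11.2 and was the most densely marked of the 8 loci in every library but siCtrl replicate 1, where ERBB2 was at 5.87 times the genome's share. Its peaks covered 42.5 and 40.4 kb after siLSD1, against 26.7 and 34.6 kb after siCtrl, which is 6.34 and 5.59 times that share after siLSD1 and 5.50 and 5.32 times after siCtrl. The means were 41.4 ± 1.49 kb after siLSD1 and 30.6 ± 5.63 kb after siCtrl (SD, n = 2 each), a difference of 10.8 kb (exact permutation p = 0.333). The difference was 6.81 kb without siCtrl replicate 1, and 8.42 kb with lists of equal length, where the groups did not overlap. The 11 EGFR regions all ended within 117 kb of the 5′ end of an interval 190 kb long, and no library had a peak beyond that.

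The EGFR 5′ end region (chr7:55085544-55090714) measured 5171 and 5032 bp after siLSD1 and 3881 and 4775 bp after siCtrl. Directly downstream of it, at 5.25 to 7.24 kb (chr7:55091251-55093239), 1981 and 1777 bp were covered after siLSD1 and nothing after siCtrl. A second region with peaks in siLSD1 alone lay 85.6 to 88.2 kb in (chr7:55171615-55174222), with 2171 and 2436 bp. It had the smallest unadjusted p of all member regions in limma, with 2.30 kb more after siLSD1 (SE 0.23 kb, limma adjusted p = 0.155). A gained region has no siCtrl peak by definition, so its direction was fixed and its siCtrl values had no spread. The p and SE are thus no support beyond its being gained. Next to it, at 90.5 to 94.8 kb (chr7:55176490-55180751), 4206 and 3574 bp were covered after siLSD1 and 2054 and 3011 bp after siCtrl. The second, CG-poor EGFR start of RefSeq lies 90.8 kb from the first, which is within the 1 kb uncertainty of that region's near edge. The region from 90.5 to 94.8 kb was chosen for description after its values were seen, and so was the narrower MET region given further below. Of the 7 common EGFR regions, 4 were broader in both siLSD1 libraries (57.1%, against a background of 30.3%) and 0 narrower (background 9.62%). The broadest region (chr7:55193278-55202954), 107 to 117 kb in, was overlapping between groups, with 9034 and 8977 bp after siLSD1 and 7290 and 9677 bp after siCtrl. It stood above 99.1% and 99.0% of common regions in breadth after siLSD1 and above 98.7% and 99.4% after siCtrl.

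ERBB2, which has no known ligand and signals as a partner of the other epidermal growth factor receptors, lies in band 17q12, and its groups overlapped with the whole lists. Its peaks covered 8.35 and 6.93 kb after siLSD1, against 8.27 and 8.58 kb after siCtrl. The means were 7.64 ± 1.00 kb after siLSD1 and 8.42 ± 0.220 kb after siCtrl (SD, n = 2 each), a difference of -0.78 kb (exact permutation p = 0.667). Within the gene interval without its flanks the difference was 0.15 kb, so its sign depended on the flanks. It was -0.08 kb without siLSD1 replicate 2 and -1.49 kb without siLSD1 replicate 1. The groups did not overlap with lists of equal length, with 7.22 and 6.93 kb after siLSD1 against 8.27 and 8.58 kb after siCtrl, a difference of -1.35 kb.

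The ERBB2 5′ end region (chr17:37843159-37845796) measured 2399 and 2465 bp after siLSD1 and 2565 and 2538 bp after siCtrl, a difference of -0.12 kb (limma SE 0.13 kb, adjusted p = 0.761). The broadest region lay 11.2 to 14.4 kb in (chr17:37855177-37858428), with 2742 and 3252 bp after siLSD1 and 2748 and 2859 bp after siCtrl. Its score lay at the 86.9 and 93.7 percentiles of the siLSD1 lists and at 88.0 and 83.1 of the siCtrl lists. Both regions were thus marked in all libraries at similar widths. ERBB2 had 4 regions, 3 of them common, and none with a peak in both libraries of one siRNA and neither of the other. PGAP3, MIEN1 and GRB7 neighbour ERBB2 in RefSeq, and peaks in its flanks may belong to them. The 5′ end region starts at -0.841 kb, inside the upstream flank, so it may also belong in part to a neighbour. Other loci also overlap or adjoin further RefSeq genes, such as ZNF346 (FGFR4), IRAIN (IGF1R), CSF1R (PDGFRB), COMETT (MET), EGFR-AS1 (EGFR) and CLIP4 (ALK). Peaks at these loci may likewise belong to such genes.

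ALK, the receptor for the ALKAL ligands, is active in the developing nervous system and lies on the minus strand in band 2p23.1. It is the longest of the 8 loci and had 37 regions. Its peaks covered 62.1 and 54.8 kb after siLSD1, against 42.5 and 52.5 kb after siCtrl, with means of 58.4 ± 5.21 kb after siLSD1 and 47.5 ± 7.08 kb after siCtrl (SD, n = 2 each; exact permutation p = 0.333). The difference of 10.9 kb was 5.89 kb without siCtrl replicate 1 and 7.21 kb without siLSD1 replicate 1, and with lists of equal length it turned to -1.02 kb and the groups overlapped. With the upper 50% of each list by score the difference was 16.0 kb. The higher sum at ALK was thus seen with the whole lists and with their upper 50%, but not with lists of equal length.

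The ALK 5′ end region (chr2:30139163-30145624) measured 6380 and 6387 bp after siLSD1 and 5389 and 5229 bp after siCtrl. It was broader in both siLSD1 libraries by 1.07 kb (limma SE 0.24 kb, adjusted p = 0.162), and stood above 96.9% and 96.2% of common regions in breadth after siLSD1 and above 95.9% and 93.4% after siCtrl. The largest difference between groups that did not overlap lay deep in the gene, 593 to 601 kb from the 5′ end (chr2:29544406-29551741), with 7031 and 4480 bp after siLSD1 and 3509 and 2993 bp after siCtrl. That difference of 2.50 kb had an SE of 1.02 kb in limma (adjusted p = 0.435), and the siLSD1 libraries themselves differed by about as much. The broadest ALK region, at 498 to 505 kb (chr2:29640102-29647262), measured 6678 and 4726 bp after siLSD1 and 6754 and 6541 bp after siCtrl. Of the 37 ALK regions 14 had a peak in 1 library alone, 5 and 6 of them in siLSD1 replicates 1 and 2 and 1 and 2 in siCtrl replicates 1 and 2. The siLSD1 lists were the longer ones, and no background was computed for these counts. No ALK region had peaks in both libraries of one siRNA and neither of the other.

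**Figure D4:**
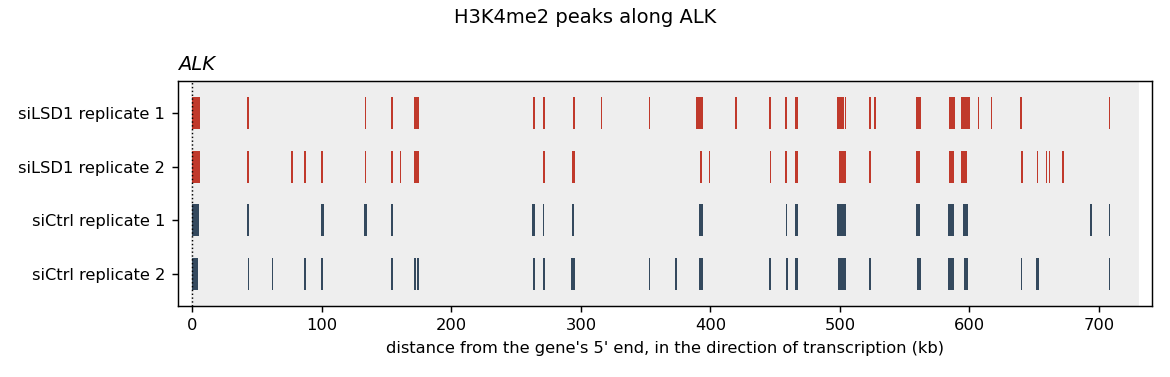
Positions of H3K4me2 peaks along ALK in kb from the 5′ end, 1 row per library with both siLSD1 rows above both siCtrl rows; grey marks the gene interval. The broad peaks at the 5′ end and at 498 to 505 kb and 593 to 601 kb recur in all 4 libraries, while many narrow peaks appear in 1 row alone.

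Over the 8 loci together, 42 of the 97 regions (43.3%) had a peak in all 4 libraries, against 45.2% of all regions. Gained regions numbered 8 (8.25%), against a background of 6.97% of all regions. They lay at IGF1R, MET and EGFR (2 each) and at FGFR4 and PDGFRB (1 each). Lost regions, with a peak in both siCtrl libraries and neither siLSD1 library, numbered 0, against a background of 1.04%. These shares are near the background, so the counts are no result about the receptor loci.

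The 8 gained regions were between 1080 and 2608 bp wide, where the median was 1778 bp over the member regions and 1707 bp over all regions. Their scores lay between the 2.55 and 61.0 percentiles of the siLSD1 lists. Each of the 8 fell below the score needed to stay in a list of equal length in at least 1 siLSD1 library. Leaving out siLSD1 replicate 1 gave 19 gained regions (20.9%, against 17.9% of all regions) and leaving out siLSD1 replicate 2 gave 15 (17.0%, against 16.8%). Leaving out siCtrl replicate 1 gave 11 (11.3%, against 7.90%) and siCtrl replicate 2 gave 19 (19.8%, against 19.5%). The members' counts thus moved with the background, since fewer libraries had to meet the rule. Lost regions then numbered between 1 and 4, where the background lay between 2.49% and 7.05%. With lists of equal length the loci had 0 gained and 4 lost regions of 70, against a background of 3.29% gained and 3.42% lost. Of the lost regions 1 lay at ERBB2 and 3 at ALK. The upper 50% of each list by score gave 6 gained regions of 48 (12.5%, against a background of 6.33%) and 0 lost (background 0.697%). There the gained share was above the background, and no test was run on it. Of the 8 gained regions, 6 were also found in the pooled siLSD1 list and not in the pooled siCtrl list. The pooled lists come from the same replicates that define a gained region, so this is no independent support. The share over all gained regions was not computed.

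Of the 42 common member regions, each siLSD1 library was broader than either siCtrl library in 17 (40.5%, against a background of 30.3% of all common regions). Each was narrower than either siCtrl library in 3 (7.14%, against a background of 9.62%), which were the FGFR4 and ERBB2 regions at the 5′ end and a MET region (chr7:116373589-116375447) with 1434 and 1176 bp after siLSD1 and 1856 and 1601 bp after siCtrl. The score of that MET region lay at the 0.127 percentile in siCtrl replicate 1 and at 50.3 in siCtrl replicate 2. In siLSD1 replicates 1 and 2 it lay at 47.5 and 31.2. Without siCtrl replicate 1, 21 of the 42 were broader (50%, against 35.0% of all common regions) and 9 narrower (21.4%, against 33.0%). Without siCtrl replicate 2, 28 were broader (66.7%, against 63.6%) and 5 narrower (11.9%, against 13.8%), close to the background. Leaving out siLSD1 replicate 1 gave 26 broader (61.9%, against 53.3%) and 7 narrower (16.7%, against 16.0%). Leaving out siLSD1 replicate 2 gave 22 broader (52.4%, against 39.7%) and 6 narrower (14.3%, against 25.2%). Lists of equal length left 35 common member regions, of which 14 were broader (40%, against 30.0%) and 3 narrower (8.57%, against 9.43%). No test was run on these shares.

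The median difference in covered length was 0.49 kb over the member regions and 0.29 kb over all regions, and 0.25 kb against 0.13 kb over common regions alone. The 17 broader regions lay at IGF1R (7), EGFR (4), ALK (4), PDGFRB (1) and MET (1).

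In the limma test of covered length, 75 of the 97 member regions reached 0.5 kb in 2 libraries or more and were tested, and 0 passed an adjusted p of 0.05. Over all 44420 regions tested 0 passed as well (a background of 0%), and the smallest adjusted p among the member regions was 0.155. At an unadjusted p under 0.05, limma gave 11 member regions with more covered sequence after siLSD1 (14.7%) and 1 with less (1.33%), against a background of 13.4% and 2.24% of all regions tested. The 1 with less was the FGFR4 region at the 5′ end. Most of those with more were gained regions, namely every gained region except the IGF1R one at chr15:99231724-99233854. Gained regions have no siCtrl peak by definition, so for them this restates the rule and is no separate result.

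**Figure D5:**
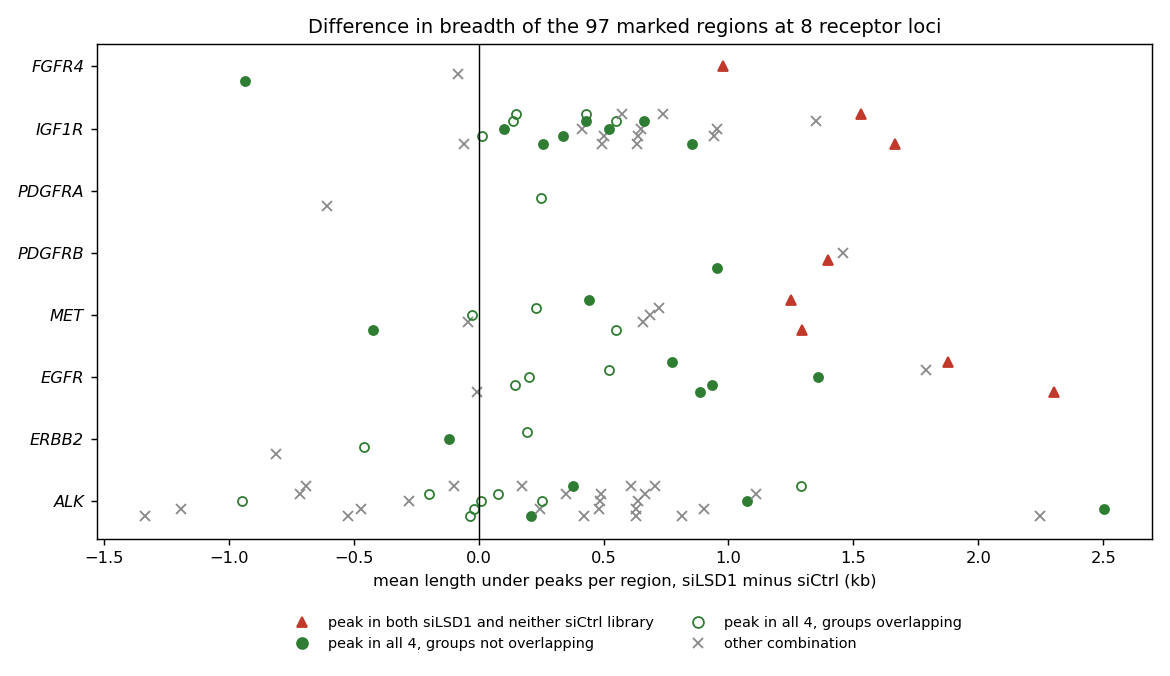
Difference in covered length, siLSD1 mean minus siCtrl mean, for each of the 97 regions (kb), by gene, with triangles for gained regions, circles for common ones (filled where the libraries of the siRNAs do not overlap) and crosses for the others. Points spread on both sides of 0 at ALK, while each common region of IGF1R and EGFR lies above 0 and the FGFR4 region at the 5′ end lies at -0.93 kb.

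The authors' pooled lists gave 95 member peaks after siLSD1 and 71 after siCtrl. Of the pooled siLSD1 peaks, 28 (29.5%) overlapped no pooled siCtrl peak, against a background of 27.0% of that whole list. Of the pooled siCtrl peaks, 6 (8.45%) overlapped no pooled siLSD1 peak, against a background of 8.86%. In the pooled siLSD1 list 13 of the 28 were at ALK, 7 at IGF1R, 3 each at MET and EGFR, and 1 each at FGFR4 and PDGFRB. In the pooled siCtrl list 4 of the 6 were at ALK and 1 each at FGFR4 and PDGFRA. Among the pooled peaks found under one siRNA alone, the highest siLSD1 score, at IGF1R, lay at the 57.0 percentile of its list, and the highest siCtrl score, at PDGFRA, at the 26.5 percentile. The sources do not say how replicates were combined, so these counts have no replicate error.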

How the data were processed

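H3K4me2 was measured by ChIP-seq in RD cells with 2 libraries per siRNA. For each library, and for the pooled replicates of each siRNA, the authors deposited a peak list with a score per peak. Per the submitters' processing notes, reads were aligned with Bowtie to hg19. The peak names carry the name of MACS, but the sources used here give neither its version and settings nor its use of the inputs. The scale of the deposited score is not stated either, and the score served only to rank and filter peaks within a list.

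Peaks on chromosomes 1 to 22 and X were merged into regions across the 4 libraries where they shared at least 1 bp. Covered length outside a widened interval was not counted. A percentile is a peak's rank by score within its list. Loci were compared with exact permutation tests, two-sided (scipy 1.17.1). Covered kb per region was fitted in limma 3.58.1 (trend and robust options, R 4.3.3) over all regions with at least 0.5 kb in at least 2 libraries, Benjamini-Hochberg adjusted over all of them, with a threshold of 0.05. Simulated data were used to check the sorting of regions into classes and the limma estimates of known shifts. Per locus, the text names the region nearest the 5′ end, the broadest, every gained or lost one, and the one of largest difference among those whose groups do not overlap. Bands are those of hg19 in circlize 0.4.16. Promoter sequences and neighbouring genes come from RefSeq on GRCh38.p14, where all 8 genes were found. No hg19 gene annotation was used here, so a list of ligands, other receptors, effectors and inhibitors was not used. The members and lists were chosen with earlier results of these data known. Alternatives were equal list lengths, the upper 50% of each list, other flanks, merging gaps and overlaps, other limma settings, a replicate block, and leaving out each library. Scaling by the sequence each list covers, and the alternatives for the counts of broader and narrower regions, were chosen after seeing the data.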

Additional observations from a re-analysis of the deposited data

How the results depend on the processing

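Of 64 recomputed differences in covered length per locus, 10 changed sign, 22 kept it but moved by more than 1.5 times, and 32 kept it within that. The cause was not tested. With lists of equal length the difference in covered length (siLSD1 minus siCtrl) turned to -1.02 kb at ALK, -0.44 kb at MET and 0.25 kb at PDGFRA. PDGFRA also gave 0.25 kb with the upper 50% of each list and without flanks, ERBB2 gave 0.15 kb without flanks, and FGFR4 gave 0.0185 kb with flanks of 50 kb. Without a change of sign, equal lengths gave -1.55 kb at FGFR4, 8.16 kb at IGF1R, 1.76 kb at PDGFRB and -1.35 kb at ERBB2, and the upper 50% gave -1.72 kb at FGFR4, 0.95 kb at PDGFRB, 2.31 kb at MET and -0.38 kb at ERBB2. ALK gave 16.0 kb with the upper 50% of each list, and a ratio of 1.00 when scaled by the sequence each list covers. Leaving out each library in turn gave -0.89 to 0.82 kb at FGFR4 and -2.40 to 1.68 kb at PDGFRA. Gained regions numbered 0 (background 3.29%) and lost regions 4 of 70 (background 3.42%) with lists of equal length. With the upper 50% of each list they numbered 6 (background 6.33%) and 0 of 48 (background 0.697%). With a library left out, so that the lone library stood for its group, they numbered 11 to 19 (background 7.90% to 19.5%) and 1 to 4 (2.49% to 7.05%). Common member regions broader and narrower in both siLSD1 libraries then numbered 21 to 28 (background 35.0% to 63.6%) and 5 to 9 (13.8% to 33.0%). After quantile normalization limma called 138 regions higher and 34 lower over all regions, with 0 members among them. With the replicate number as a replicate block, limma called 0 regions, and at an unadjusted p under 0.05 gave 14 of 75 member regions higher and 2 lower, against a background of 14.6% and 2.38%. Same-numbered libraries deviated together with r = 0.25 over 26653 common regions, and with 2 pairs the numbers are not shown to pair the samples. Read depth is unknown, so no limit from counting can be given, and 2 libraries against 2 cannot give a permutation p below 0.333.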
